A study of Homo sapiens with 6 samples.

Results

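The genes described here act in sterol and fatty acid metabolism, move or store sterols, or belong to the liver X receptor (LXR) system that disposes of excess sterol. They were chosen by symbol, with earlier results of these data known: 38 genes were listed, and each matched 1 of the 23698 gene rows. Counts of members set beside a background below may therefore not be independent of these data. Of the 38, 37 had enough counts to be tested, and ABCG1 did not. Poly(A) RNA was sequenced from MV4-11, an established human acute myeloid leukaemia line that carries a FLT3 internal tandem duplication, kept in Iscove's medium with fetal bovine serum. In 1 group of 3 libraries the cells had been stably transduced by lentivirus with a short hairpin RNA directed at PRMT5, which symmetrically dimethylates arginines of histones and splicing proteins. In the other 3 they carried a scrambled hairpin vector, so that both groups are stably transduced cells. The number and sequence of the hairpins, and the time after transduction, were not given in any source read for this work. The comparison asked which genes differ when PRMT5 is knocked down.

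Cells build cholesterol from acetyl-CoA through mevalonate, squalene and lanosterol. When sterol runs low in the endoplasmic reticulum, the escort protein SCAP carries the precursors of the SREBP transcription factors to the Golgi, where proteases release the active factors. These switch on nearly every enzyme of the route, and, chiefly through SREBP-1, the enzymes of fatty acid synthesis. When sterol is plentiful, INSIG proteins hold SCAP back, and oxysterols activate LXR, which turns on sterol export.

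Library totals ran from 16408484 to 19077106 estimated counts. PRMT5 measured 103, 71.6 and 53 CPM across knockdown 1 to 3 (CPM is the count scaled to library size, here adjusted by TMM, edgeR's depth normalization), and 133 and 158 CPM for controls 1 and 3. The value was 53.2 CPM for the library labelled scrambled control 2, a level of the knockdown group that goes against its label. That library is therefore named by its label throughout, and every direction below that rests on it carries this doubt. Across genes, the correlation of its log2 CPM was 0.923 with control 1 and 0.876 with control 3, while that of knockdown 3 and control 3 was 0.995. The PRMT5 log2 difference, knockdown minus control, was −0.60 (SE 0.43), adjusted p = 0.926 in edgeR's quasi-likelihood fit. It was −0.94 with the library labelled scrambled control 2 left out, and −0.29 with control 3 left out. Of 10 myeloid markers all 10 passed the count filter, although CD14 stayed under 1.1 CPM in every library. Their summed level was 2185 to 2817 CPM in the knockdown libraries and 1507 to 2601 CPM in the controls, lowest in the library labelled scrambled control 2. Of 6 hepatocyte markers, 2 were at 0 in every library and the 6 summed to at most 0.324 CPM. The T cell and erythroid markers, 6 each, summed to at most 1.09 and 1.10 CPM, and the 6 fibroblast markers to 8.95 CPM in the library labelled scrambled control 2 against 1.51 to 4.19 CPM elsewhere. The 6 B cell markers summed to 6.81 to 16 CPM, nearly all of it PAX5, and were lowest in the library labelled scrambled control 2.

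Sterol-synthesis enzymes were lower on average in the knockdown libraries, and the size of that difference depended on 2 of the 6 libraries. Without the library labelled scrambled control 2, the median of the 16 enzymes was −0.25, with 14 below 0. Without knockdown 1 it was −1.06, with 15 below 0. With both left out it was 0.042, with 7 of 16 below 0. That pair was chosen after these values were seen, as the extremes for these genes, so leaving it out had to move the median upward. No member passed the test: 0 of 37 had an edgeR adjusted p under 0.05, where percent called over all 13668 tested genes was 0%. Members' adjusted p ran from 0.926 to 0.987. An edgeR unadjusted p under 0.05 was found for 7 of 37 members, all lower in the knockdown. That share was above the background of 1.77% in either direction and 1.2% lower. DESeq2 and limma-voom also called 0 members, with 12 and 0 at an unadjusted p under 0.05. DESeq2 gave no adjusted p for some members, HMGCS1 and HSD17B7 among them, so it could not call these. Of the 37 members, 32 had a log2 difference below 0 and 5 above, against 50.1% below among all tested genes. Their median log2 difference was −0.94, and that of all tested genes was −0.00069. Without the library labelled scrambled control 2, the median was −0.18 with 22 members below 0, and none had an unadjusted p under 0.05 (background 0.744%). With knockdown 1 left out as well, it was 0.048 with 14 below 0. In bulk RNA, fewer cells that use a gene and less of its RNA per cell cannot be told apart.

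The members divided the libraries in a common way. For 30 of 37 members the highest value was in the library labelled scrambled control 2, which held the highest value of 34.4% of all tested genes. For 23 of 37 the lowest value was in knockdown 1, which held it for 17.6% of all tested genes. Both were true of 21 members (background 10.3%). In log2 CPM, 26 members stood at least 1 above the mean of controls 1 and 3 in the library labelled scrambled control 2 (background 15.1%), and 1, PMVK, stood at least 1 below it (15.2%). In knockdown 1, 17 members stood at least 1 below the mean of knockdown 2 and 3 (background 3.79%). The library labelled scrambled control 2 also had the lowest TMM factor, 0.881 against 1.00 to 1.04 elsewhere. With the factors dropped and libraries scaled by their totals alone, the medians were −1.11 for the mevalonate enzymes and −1.37 from squalene to cholesterol, 31 of 37 members were below 0, and the median of all tested genes was 0.040. The part that the low PRMT5 or the marker sums of that library have in these values was not tested.

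**Figure D1:**
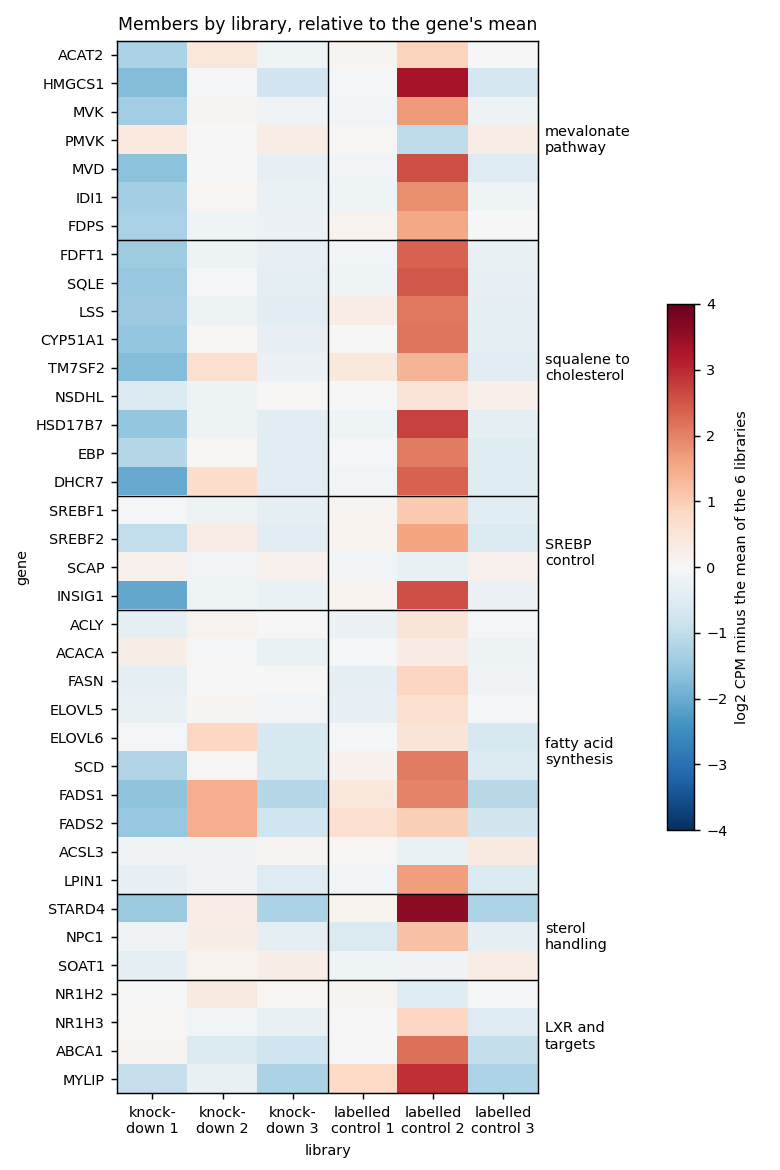
Heat map of the 37 tested genes (rows, in pathway order, split by role) in the 6 libraries (columns), coloured by log2 CPM minus the gene's mean over the 6 libraries. The library labelled control 2 is red for 30 genes with their highest value there, knockdown 1 is blue for 15 of 16 sterol enzymes, and knockdown 3 and control 3 look alike.

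The first enzymes of the route, from acetyl-CoA to farnesyl diphosphate, are ACAT2, HMGCS1, MVK, PMVK, MVD, IDI1 and FDPS. Their median log2 difference was −1.22, 6 of 7 being below 0, and −0.21 without the library labelled scrambled control 2. HMGCS1, which makes HMG-CoA, measured 43, 137 and 85.3 CPM across knockdown 1 to 3, 140.4 and 89.9 CPM for controls 1 and 3, and 1402 CPM for the library labelled scrambled control 2. That last value was 12.2-fold the mean of the other controls, while the other 5 libraries overlapped. Where values follow without library names below, they keep this order. The HMGCS1 log2 difference was −2.62 (SE 1.05), with a 95% confidence interval of −5.07 to −0.18.

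MVD, the decarboxylase that yields isopentenyl diphosphate, measured 14.3, 43.7 and 35.5 CPM across knockdown 1 to 3, 41.4 and 30.8 CPM for controls 1 and 3 and 268 CPM for the library labelled scrambled control 2. IDI1, the isomerase of the next step, was at 47, 128 and 98.6 CPM, 107 and 107 CPM and 434 CPM in the same order. Both genes had their lowest value in knockdown 1, and knockdown 2 and 3 lay within the range of controls 1 and 3 or close to it. Their log2 differences were −1.86 (SE 0.86) and −1.25 (SE 0.63). Without the library labelled scrambled control 2 these were −0.21 and −0.23.

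FDPS, farnesyl diphosphate synthase, measured 71, 156 and 149 CPM across knockdown 1 to 3 and 193 and 172 CPM for controls 1 and 3. The value was 512 CPM for the library labelled scrambled control 2. FDPS was the 1 member whose groups did not overlap, every knockdown library being below every control (background 3.1% in that direction and 6.24% in either). Its log2 difference was −1.22 (SE 0.50), edgeR adjusted p = 0.926, and −0.54 without the library labelled scrambled control 2. Processed copies of FDPS exist in the genome, so its counts are uncertain where reads could be shared. ACAT2 and MVK, which make acetoacetyl-CoA and phosphorylate mevalonate, had log2 differences of −0.56 and −1.09, which were −0.21 and −0.18 when the library labelled scrambled control 2 was left out. ACAT2 overlaps a neighbouring gene at its end, and the use of strand in counting is not known.

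PMVK, phosphomevalonate kinase, ran the other way, and is singled out because its values were seen to differ. It measured 58.8, 43.7 and 55 CPM across knockdown 1 to 3, 45.8 and 55.1 CPM for controls 1 and 3 and 21.9 CPM for the library labelled scrambled control 2. Its lowest value was thus where the other enzymes were highest, and its highest in knockdown 1, where they were lowest. The PMVK log2 difference was 0.36 (SE 0.35), which did not pass the test (edgeR adjusted p = 0.926), and 0.061 without the library labelled scrambled control 2.

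From squalene to cholesterol, all 9 enzymes had a log2 difference below 0, with a median of −1.51. Each of the 9 was highest in the library labelled scrambled control 2 and lowest in knockdown 1. Without the former, the median was −0.30 and 8 were below 0, and without both it was 0.035 with 4 below 0. FDFT1, squalene synthase, measured 114, 269.8 and 247 CPM across knockdown 1 to 3, 287 and 252 CPM for controls 1 and 3 and 1598 CPM for the library labelled scrambled control 2. SQLE, squalene epoxidase, was at 33.1, 90.6 and 71.4 CPM, 82.9 and 74.4 CPM and 534 CPM in that order. In both, knockdown 2 and 3 sat beside controls 1 and 3, with knockdown 1 below and the library labelled scrambled control 2 above. The log2 differences were −1.76 (SE 0.75) for FDFT1 and −1.82 (SE 0.81) for SQLE.

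LSS, lanosterol synthase, measured 27, 64.3 and 56 CPM across knockdown 1 to 3, 91.6 and 58.3 CPM for controls 1 and 3 and 324 CPM for the library labelled scrambled control 2. HSD17B7, a sterol ketoreductase of the demethylation steps, was at 8.72, 22.2 and 19.2 CPM, 23.1 and 19.9 CPM and 173 CPM in the same order. Their log2 differences were −1.69 (SE 0.66) and −2.10 (SE 0.87), and −0.61 and −0.36 without the library labelled scrambled control 2. HSD17B7 has a near-identical pseudogene copy, so its counts are uncertain. Among the other enzymes of this stretch, the log2 difference was −1.51 for CYP51A1, the lanosterol demethylase, and −1.40 for EBP, the sterol isomerase. It was −1.39 for DHCR7, which makes cholesterol in the last reduction, and −0.78 for TM7SF2, a sterol reductase. With the library labelled scrambled control 2 left out, DHCR7 had 0.085, and it alone of the 9 then lay above 0. NSDHL, a sterol dehydrogenase, differed least, at −0.48 (SE 0.26), and was 1.34-fold the mean of controls 1 and 3 in the library labelled scrambled control 2, against 8.03-fold for HSD17B7.

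Along the route as a whole the differences did not run in step order. Across the 15 enzymes other than PMVK, the library labelled scrambled control 2 held 1.34 to 12.2 times the mean of controls 1 and 3, with NSDHL lowest and HMGCS1 highest. Of all 16 enzymes, 15 were highest there and lowest in knockdown 1 (background 10.3%), PMVK having been set apart because its values went the other way. The ratio of highest to lowest library ran from 2.12 to 32.6. The median range over the 6 libraries was 3.39 log2 units for the 16 enzymes and 1.08 for all tested genes. The SE of a log2 difference was 0.26 to 1.05 for these enzymes, against a median of 0.33 over all tested genes.

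**Figure D2:**
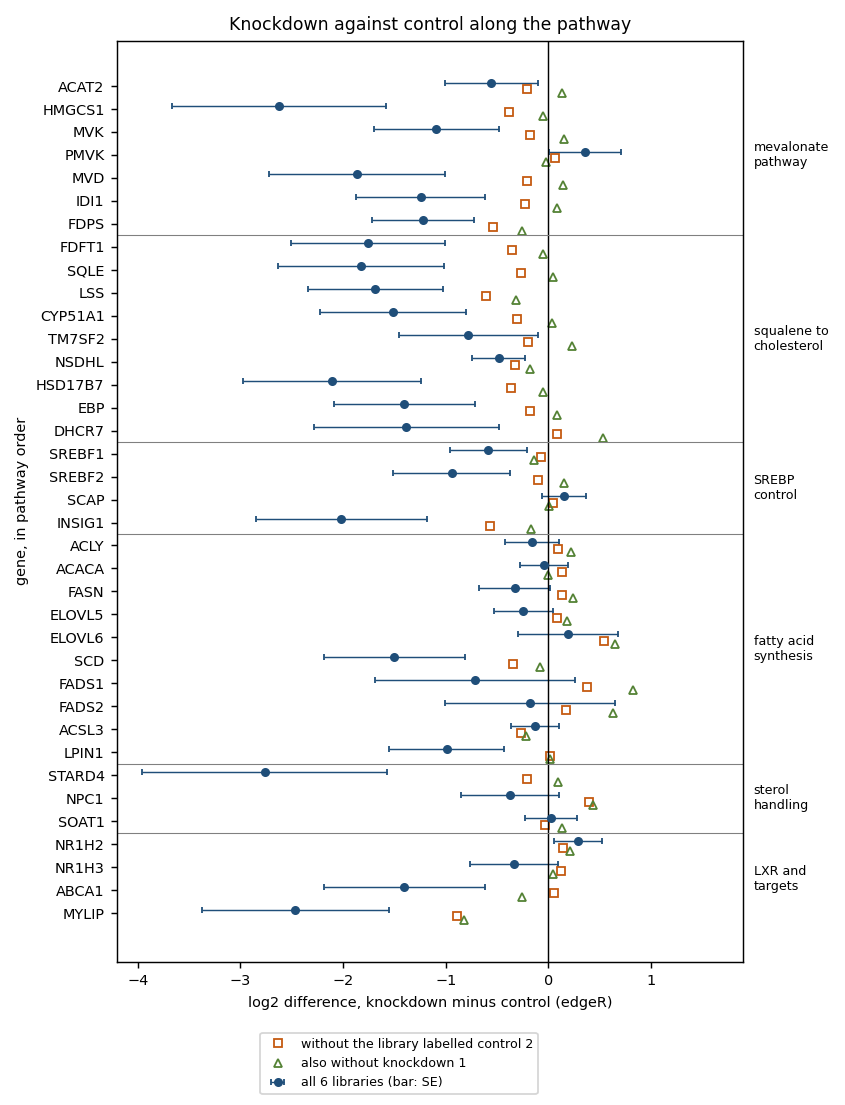
The log2 difference of knockdown minus control (x axis) for each of the 37 tested genes in pathway order (y axis), with all 6 libraries (circles, bars are SE), without the library labelled control 2 (squares) and also without knockdown 1 (triangles). Squares lie closer to 0 than circles for all sterol enzymes, and triangles spread on both sides of 0.

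Between libraries of the same number, nearly all enzymes were lower in the knockdown for numbers 1 and 2, while they differed little for number 3. The median log2 difference of the 16 enzymes was −1.39 between knockdown 1 and control 1, with 15 of 16 lower in the knockdown. It was −1.88 between knockdown 2 and the library labelled scrambled control 2, again with 15 lower. Between knockdown 3 and control 3 it was −0.041, with 10 lower and 6 higher, and single enzymes ran from −0.21 to 0.24. The median size of the difference between those libraries, regardless of sign, was 0.063 for the enzymes and 0.096 for all tested genes. PRMT5 differed by −0.36, 0.43 and −1.58 in the same comparisons. The libraries numbered 3 had the largest PRMT5 difference and the smallest enzyme median, and were also the most alike over all genes (r = 0.995). How the PRMT5 and enzyme differences relate was not tested.

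**Figure D3:**
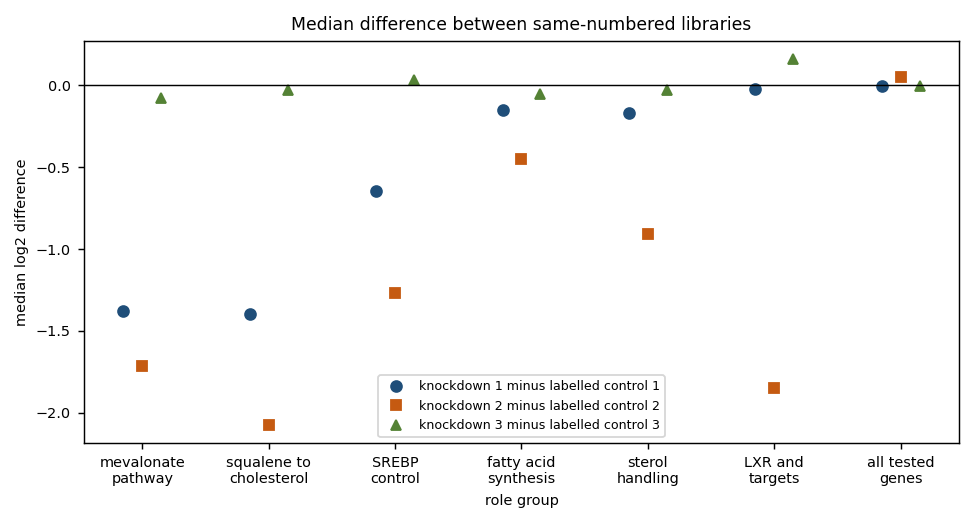
Median log2 difference (y axis) between same-numbered libraries for each role group and for all tested genes (x axis). For the mevalonate and squalene groups, circles (number 1) lie at −1.38 and −1.40 and squares (number 2, control by its label) at −1.71 and −2.08. Triangles (number 3) run from −0.076 to 0.16 over the groups.

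The promoters of these enzymes were read next, because SREBPs act with NF-Y, which binds the letters CCAAT, and with Sp factors, which bind GGGCGG. RefSeq promoters (GRCh38.p14, 250 bases before to 50 after each start) matched 33 of the 38 members by symbol, 13 of them among the 16 sterol enzymes. A gene with several starts was counted once if any of them held the motif, on either strand. CCAAT was found for 11 of 13 sterol enzymes (84.6%) and 23 of 33 members (69.7%), against 43.3% of 9397 tested genes with a promoter in the table. GGGCGG was found for 12 of 13 enzymes, against 75.2% of those genes. The letters TCACNCCAC, a strict form of the sterol regulatory element, were found for 0 of 13 enzymes and for 1 member, SREBF2, against 1.52% of the genes. Active elements vary from these letters, so a missing match says only that the letters are not in the window. CYP51A1 and PMVK were the 2 enzymes without CCAAT. The number of matches was set beside the values for single enzymes only. CYP51A1 stood 2.31 log2 units above the mean of controls 1 and 3 in the library labelled scrambled control 2. On the same scale PMVK was at −1.20. NSDHL and MVK, with 5 matches each, stood 0.42 and 1.86 above that mean, and MVD, with 3, stood 2.90 above it. Whether CCAAT bears on the values was not tested.

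The stretches below are the 250 bases before the start, printed for 5 genes that were highest in the library labelled scrambled control 2 and for PMVK, which was lowest there. They are shown so that the spacing of the motifs can be read beside the values. The 5 were picked from 30 members highest in that library, and all 5 hold CCAAT. CYP51A1, also highest there, holds none and is not printed. The match counts below therefore do not compare genes high and low there. Capitals mark CCAAT or its reverse ATTGG, and in SREBF2 also TCACCCCAC.
HMGCS1 (chr5:43313413-43313662, minus strand): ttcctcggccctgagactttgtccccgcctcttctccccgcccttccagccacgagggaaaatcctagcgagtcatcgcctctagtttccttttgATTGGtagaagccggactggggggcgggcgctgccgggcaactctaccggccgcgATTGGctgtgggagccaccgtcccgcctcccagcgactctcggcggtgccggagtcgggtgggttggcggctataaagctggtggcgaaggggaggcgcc
MVD (chr16:88663092-88663341, minus strand): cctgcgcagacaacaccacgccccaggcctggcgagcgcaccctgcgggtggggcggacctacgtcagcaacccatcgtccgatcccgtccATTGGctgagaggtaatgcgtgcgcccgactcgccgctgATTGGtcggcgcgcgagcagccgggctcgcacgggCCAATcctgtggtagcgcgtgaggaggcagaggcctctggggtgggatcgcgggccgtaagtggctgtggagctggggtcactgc
FDPS (chr1:155308616-155308865, plus strand): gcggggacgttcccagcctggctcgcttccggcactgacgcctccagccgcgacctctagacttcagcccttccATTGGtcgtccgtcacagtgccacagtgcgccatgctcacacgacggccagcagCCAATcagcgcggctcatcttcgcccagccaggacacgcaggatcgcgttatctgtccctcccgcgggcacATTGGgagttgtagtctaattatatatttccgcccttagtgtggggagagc
STARD4 (chr5:111512536-111512785, minus strand): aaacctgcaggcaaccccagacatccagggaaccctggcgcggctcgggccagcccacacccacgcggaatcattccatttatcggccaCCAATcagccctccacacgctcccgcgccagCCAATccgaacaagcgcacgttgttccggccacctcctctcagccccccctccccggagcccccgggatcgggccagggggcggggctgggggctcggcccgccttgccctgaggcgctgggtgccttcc
SREBF2 (chr22:41832855-41833104, plus strand): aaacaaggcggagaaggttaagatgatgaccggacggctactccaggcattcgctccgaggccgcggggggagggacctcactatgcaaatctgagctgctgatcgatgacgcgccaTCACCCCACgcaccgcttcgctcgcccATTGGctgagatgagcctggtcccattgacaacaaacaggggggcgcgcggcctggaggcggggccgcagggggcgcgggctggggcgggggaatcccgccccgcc
PMVK (chr1:154936720-154936969, minus strand): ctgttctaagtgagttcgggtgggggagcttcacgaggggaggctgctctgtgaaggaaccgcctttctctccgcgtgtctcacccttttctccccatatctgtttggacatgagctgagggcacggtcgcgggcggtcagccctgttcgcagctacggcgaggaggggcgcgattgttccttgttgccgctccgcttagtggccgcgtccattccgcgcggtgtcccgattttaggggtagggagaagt
MVD and FDPS held 3 matches each, HMGCS1 and STARD4 2 each, SREBF2 1 and PMVK 0. In HMGCS1 they began at −155 and −100 from the start. In SREBF2 the sterol element began at −133 and the reversed CCAAT at −106. HMGCS1 has a second start in the table, whose window held no CCAAT.

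The 4 genes that control SREBP had a median log2 difference of −0.76, 3 being below 0, and of −0.084 without the library labelled scrambled control 2. INSIG1, the retention protein that is itself an SREBP target, measured 31.3, 116 and 109.9 CPM across knockdown 1 to 3, 144 and 111 CPM for controls 1 and 3 and 787 CPM for the library labelled scrambled control 2. As with 15 of the enzymes, the library labelled scrambled control 2 was highest and knockdown 1 lowest. The log2 difference was −2.02 (SE 0.83), and −0.57 without the library labelled scrambled control 2.

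SREBF2, which encodes the sterol-directed factor SREBP-2, measured 123, 296 and 181 CPM across knockdown 1 to 3, 265 and 164 CPM for controls 1 and 3 and 722 CPM for the library labelled scrambled control 2. SREBF1, which encodes SREBP-1, was at 131, 119.8 and 106 CPM, 148 and 101 CPM and 285 CPM in the same order. Both were highest in the library labelled scrambled control 2, but knockdown 1 was lowest only for SREBF2, and for SREBF1 it was the highest of the knockdown libraries. The log2 differences were −0.94 (SE 0.57) and −0.58 (SE 0.37), and −0.100 and −0.069 when the library labelled scrambled control 2 was left out. SCAP, the escort, was at 90.9, 74.5 and 91.8 CPM, 74.6 and 91.2 CPM and 65.2 CPM, a log2 difference of 0.15 (SE 0.22) with a 95% confidence interval of −0.35 to 0.66. Its range over the libraries was 0.49 log2 units, under the median of all tested genes.

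**Figure D4:**
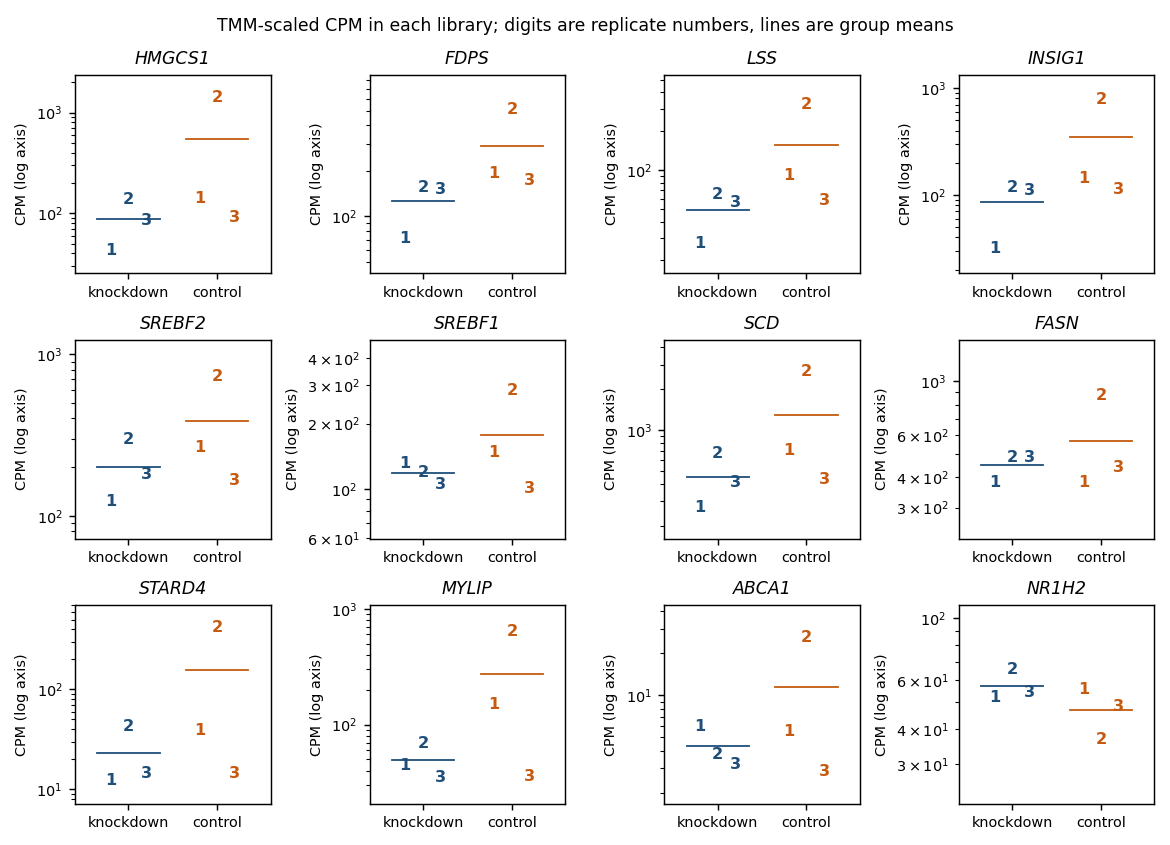
CPM on a log axis (y) for 12 genes in the knockdown and control groups (x), with digits for the replicate number and lines for the group means. Control 2, by its label, is at the top of 11 panels and at the bottom for NR1H2. Digits 3 lie at nearly the same height in both groups.

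The 10 members of the fatty acid list make fatty acids or, as ACSL3 and LPIN1, act on them or their products. Their median log2 difference was −0.21, 9 below 0. It was 0.12, 2 below 0, without the library labelled scrambled control 2. With knockdown 1 left out too, the median was 0.20. Of the 10, 5 stood at least 1 log2 unit above controls 1 and 3 in the library labelled scrambled control 2 (background 15.1%). LPIN1 was among these 5. In knockdown 1, 2 were at least 1 lower than in knockdown 2 and 3 (background 3.79%). SCD, the desaturase that makes oleate, measured 273, 669 and 410.5 CPM across knockdown 1 to 3, 713 and 433 CPM for controls 1 and 3 and 2678 CPM for the library labelled scrambled control 2. In that last library SCD was 4.67-fold the mean of controls 1 and 3, and it had a log2 difference of −1.50 (SE 0.69). FASN, which makes palmitate, was at 381, 484 and 483 CPM, 379.9 and 439.5 CPM and 875 CPM, a log2 difference of −0.33 (SE 0.34) that was 0.14 without the library labelled scrambled control 2.

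LPIN1, a phosphatidate phosphatase, measured 31.3, 35.7 and 27.1 CPM across knockdown 1 to 3, 36 and 26.2 CPM for controls 1 and 3 and 125 CPM for the library labelled scrambled control 2. The other 5 libraries lay close together, so that the log2 difference of −0.99 (SE 0.56) was 0.016 without that library. ELOVL5, an elongase of polyunsaturated chains, was at 190.3, 256 and 218 CPM, 189 and 230.1 CPM and 367 CPM, a log2 difference of −0.24 (SE 0.29). ACLY, which supplies cytosolic acetyl-CoA, had a log2 difference of −0.16 (SE 0.27). ACACA, which makes malonyl-CoA, had −0.041 (SE 0.24), and 0.019 when libraries were scaled by their totals alone. ACSL3, an acyl-CoA synthetase, had −0.13 (SE 0.23).

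FADS1 and FADS2, the desaturases of polyunsaturated fatty acids, are neighbours on chromosome 11. FADS1 measured 4.39, 37.4 and 6.11 CPM across knockdown 1 to 3, 18.3 and 6.32 CPM for controls 1 and 3 and 54 CPM for the library labelled scrambled control 2. FADS2 was at 1.15, 9.72 and 1.95 CPM, 5.50 and 2.07 CPM and 6.94 CPM. Both libraries numbered 2 and control 1 were high, and knockdown 1 and both numbered 3 were low, a division that crosses the groups. The log2 differences were −0.72 (SE 0.98) and −0.18 (SE 0.83). ELOVL6, an elongase of saturated chains, was low throughout and had 0.19 (SE 0.49). These 3 genes were described after their values were seen.

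The 3 genes that move or store sterol had a median log2 difference of −0.37, with 2 below 0, and 1 of them had the library order of the enzymes. STARD4, a sterol transfer protein, measured 12.2, 42 and 14.2 CPM across knockdown 1 to 3, 38.4 and 14.5 CPM for controls 1 and 3 and 412 CPM for the library labelled scrambled control 2, 15.6-fold the other controls and the largest such ratio of any tested member. Its log2 difference was −2.77 (SE 1.19), and −0.21 without that library. NPC1, which exports cholesterol from lysosomes, was at 33.1, 43.8 and 27.8 CPM, 24.6 and 28.6 CPM and 82.4 CPM, and its log2 difference of −0.37 (SE 0.48) was 0.39 without that library. SOAT1, which esterifies cholesterol for storage, was at 37.6, 52.6 and 57.7 CPM, 42.3 and 58.9 CPM and 43.7 CPM, a log2 difference of 0.030 (SE 0.25) with a 95% confidence interval of −0.56 to 0.62.

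The 4 tested LXR genes had a median log2 difference of −0.87, 3 being below 0, and of 0.090, 1 below 0, without the library labelled scrambled control 2. NR1H2, which encodes LXR beta, measured 52.2, 65.7 and 54.3 CPM across knockdown 1 to 3, 55.6 and 48.4 CPM for controls 1 and 3 and 36.8 CPM for the library labelled scrambled control 2, where it was lowest. NR1H3, which encodes LXR alpha, was low in all libraries, at 3.92, 3.52 and 3.08 CPM, 3.80 and 2.64 CPM and 6.87 CPM. Their log2 differences were 0.29 (SE 0.23) and −0.34 (SE 0.43), neither past the test.

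ABCA1, the pump that loads cholesterol onto apolipoproteins and a well-known LXR target, measured 6.0, 3.77 and 3.19 CPM across knockdown 1 to 3, 5.50 and 2.85 CPM for controls 1 and 3 and 26.1 CPM for the library labelled scrambled control 2. MYLIP, an LXR-induced ubiquitin ligase for lipoprotein receptors, was at 44.6, 68.4 and 35.3 CPM, 148 and 35.7 CPM and 635 CPM. Both LXR targets were thus highest in the library where most SREBP targets were highest, which held the highest value of 34.4% of all tested genes. Unlike 15 of the 16 enzymes, neither was lowest in knockdown 1, which held the lowest value of 17.6% of all tested genes. ABCA1 was lowest in control 3 and MYLIP in knockdown 3. Being lowest in knockdown 1 was true of 4 of 10 fatty acid members and 2 of 4 SREBP control genes. The log2 difference was −1.40 (SE 0.79) for ABCA1, and 0.054 without the library labelled scrambled control 2. For MYLIP it was −2.47 (SE 0.91), the smallest p of any member (unadjusted p = 0.0283, edgeR adjusted p = 0.926), and −0.89 without that library. Control 1, at 148 CPM, was also above all knockdown libraries, while control 3 and knockdown 3 differed by −0.020 on the log2 scale.

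ABCG1, a further cholesterol exporter, held 1 count in each of 2 libraries (knockdown 2 and the library labelled scrambled control 2) and 0 in the other 4. A count of 0 allows up to 3 counts, or 0.155 to 0.170 CPM in those 4, for counting error only, so ABCG1 gave no comparison. A spaced LXR repeat, the letters AGGTNA and NGGTCA with 4 bases between them, on either strand, was found in the promoters of 2 of 33 members, ABCA1 and ACSL3, and in 0.0958% of the tested genes with a promoter. The ABCA1 stretch before the start is printed because it holds this repeat, in capitals and reversed, from −69 to −54:
ABCA1 (chr9:104928156-104928405, minus strand): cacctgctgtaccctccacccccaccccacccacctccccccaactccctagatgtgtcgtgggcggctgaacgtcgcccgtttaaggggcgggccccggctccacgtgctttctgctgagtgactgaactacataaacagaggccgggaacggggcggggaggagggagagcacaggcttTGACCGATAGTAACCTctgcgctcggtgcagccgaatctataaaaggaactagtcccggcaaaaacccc

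Other genes of these pathways, taken from lists of related genes, were read in the same way. None of the 62 tested passed (edgeR), and 1 had an unadjusted p under 0.05 (background 1.77%). Of them, 33 were below 0 and 29 above (background 50.1% below), with a median log2 difference of −0.044. Among 9 tested genes of sterol synthesis and acetate use, 7 were below 0 (median −0.56). In knockdown 1, 5 were at least 1 log2 unit lower than in knockdown 2 and 3 (background 3.79%). MSMO1, the sterol methyl oxidase, measured 15.8, 65 and 34.9 CPM across knockdown 1 to 3, 57.6 and 35.7 CPM for controls 1 and 3 and 592 CPM for the library labelled scrambled control 2, a log2 difference of −2.57 (SE 1.09). ACSS2, which makes acetyl-CoA from acetate, was at 14.6, 46.5 and 21 CPM, 35.3 and 18.8 CPM and 459.8 CPM, a log2 difference of −2.64 (SE 1.17). Both had the library order of the sterol enzymes, and without the library labelled scrambled control 2 they had −0.27 and 0.021.

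The side branches that use farnesyl diphosphate for prenylation, dolichol and ubiquinone were read next. Of 12 such genes, 4 were below 0, with a median of 0.11, and 1 was highest in the library labelled scrambled control 2 (background 34.4%). Without that library the median was −0.012 with 6 of 12 below 0. ZMPSTE24, a protease of prenylated proteins, and DHDDS, a subunit of the dolichol synthase, had log2 differences of 0.72 (SE 0.49) and 0.31 (SE 0.33). Of 10 genes for SREBP processing and INSIG turnover, 5 were below 0 (median −0.042). SEC23A, a coat protein of transport vesicles, had a log2 difference of −0.66 (SE 0.29) and ERLIN1, an endoplasmic reticulum membrane protein, of 0.41 (SE 0.22). SEC23A measured 44.7, 51 and 66.9 CPM across knockdown 1 to 3, 67.6 and 71.5 CPM for controls 1 and 3 and 117 CPM for the library labelled scrambled control 2. Its groups did not overlap, by 66.9 against 67.6 CPM, which was true of 2 of the 62 listed genes (background 6.24% in either direction).

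Of 14 further genes of fatty acid metabolism, 8 were below 0 (median −0.15). ME1, the malic enzyme that supplies NADPH, had a log2 difference of 1.11 (SE 0.52), and 1.12 without the library labelled scrambled control 2. SLC25A1, the mitochondrial citrate carrier, had −0.82 (SE 0.40). Among 8 further genes of LXR function, 3 were below 0 (median 0.013), with LPCAT3, a phospholipid acyltransferase, at 0.33 (SE 0.27). Of these 8, 2 were highest in the library labelled scrambled control 2 (background 34.4%), and 0 stood at least 1 log2 unit above controls 1 and 3 there (background 15.1%). Among 9 further genes of sterol handling, 6 were below 0 (median −0.043), with NPC2, the lysosomal partner of NPC1, at −1.03 (SE 0.59) and STARD3 at −0.45 (SE 0.32). No test compared these lists with one another.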

How the data were processed

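Each library's deposited table holds estimated counts by gene, not scaled to depth, which were rounded to whole numbers here. Named in the submitters' processing notes, without order, are hg19, TopHat2 version 2, CASAVA 1.9 and edgeR. For the counting tool, annotation and strand setting: not given in the sources used here. Nothing in the labels says that replicates were separate cultures, so p-values measure only the spread between these libraries, which may be technical.

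After filtering by filterByExpr with a minimum count of 10, genes were fitted with edgeR 4.0.16 in R 4.3.3: TMM, estimateDisp, glmQLFit and glmQLFTest, group as the only term, two-sided, Benjamini-Hochberg over 13668 genes, threshold 0.05. SEs and 95% intervals come from that fit. CPM is TMM-scaled, with a prior count of 2 added before logs. An exact permutation of 3 against 3 cannot go below 0.1. Alternatives were other scalings and filters, DESeq2 1.42.0, limma-voom (limma 3.58.1), a replicate block and left-out libraries. The fit was tested on simulated data.

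Same-numbered libraries deviated together from their group means over genes (r = 0.127, 0.394 and 0.566), so the numbers were taken to pair them in the pair differences and the replicate block. The main fit, with its SEs, intervals and p-values, leaves the pairing out. That rests on the values, not on the labels. Knockdown 2 with control 1 had 0.164, above the 0.127 of the libraries numbered 1, so that pair is the least certain.

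Members and lists were chosen with earlier results of these data known. Values in every library are given for the SREBP and LXR genes and, in other roles, for up to 4 members with the smallest p. From each related list, up to 2 are named. PMVK, FADS1, FADS2 and ELOVL6 were added after their values were seen. Promoter coordinates are of another build than the counts and were joined by symbol only.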

Additional observations from a re-analysis of the deposited data

How the results depend on the processing

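With 3 libraries a group and 1 library against its label, a direction here describes these libraries. No setting called any gene: 0 of the genes tested had an adjusted p under 0.05 under any scaling, filter, tool or left-out library. At an unadjusted p under 0.05, the test passed 242 of 13668 genes, 546 of 18909 in DESeq2, 477 of 18937 with no filter on low counts, 117 of 13668 in limma-voom and 436 of 13668 with the replicate block. It passed 1307 of 13936 genes (19 members) without control 3, 373 of 13886 (14 members) without control 1 and 110 of 13838 (2 members) without knockdown 2. It passed 438 of 13941 without knockdown 3, 33 of 13904 without knockdown 1 and 103 of 13853 without the library labelled scrambled control 2, with 0 members in each. Leaving out 1 library at a time moved the PRMT5 log2 difference over −0.94 to −0.29.

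With the replicate block, which pairs same-numbered libraries, the medians were −1.03 (mevalonate pathway), −1.22 (squalene to cholesterol), −0.61 (SREBP control), −0.22 (fatty acids), −0.18 (sterol handling) and −0.52 (LXR), PRMT5 had −0.50, 16 members had an unadjusted p under 0.05 against 7, and no call changed.

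Over the fits that leave out 1 library each, the medians were −1.49 to −0.21 (mevalonate pathway), −1.92 to −0.30 (squalene to cholesterol), −1.08 to −0.084 (SREBP control) and −1.23 to 0.090 (LXR), the end nearest or past 0 being without the library labelled scrambled control 2. The LXR median was 0.075 without both libraries numbered 2. Without knockdown 1 and the library labelled scrambled control 2, a setting chosen after seeing the data, the medians were 0.085 (mevalonate pathway), 0.035 (squalene to cholesterol) and −0.066 (SREBP control), and 14 members against 32 were below 0.

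Scaled by library totals alone, the log2 difference changed sign for 1 member: ACACA 0.019. Without both libraries numbered 2, the log2 difference changed sign for 6 members: ACACA 0.16, FASN 0.076, NPC1 0.19, SOAT1 −0.088, NR1H3 0.12 and ABCA1 0.14. Without knockdown 1 and the library labelled scrambled control 2, the log2 difference changed sign for 20 members: ACAT2 0.14, MVK 0.16, PMVK −0.026, MVD 0.14, IDI1 0.085, SQLE 0.048, CYP51A1 0.035, TM7SF2 0.23, EBP 0.081, DHCR7 0.53, SREBF2 0.16, ACLY 0.22, FASN 0.25, ELOVL5 0.18, FADS1 0.83, FADS2 0.63, LPIN1 0.020, STARD4 0.097, NPC1 0.43 and NR1H3 0.041. Over the fits without 1 library, the sign changed for DHCR7 (−2.21 to 0.085), ACLY (−0.31 to 0.096), ACACA (−0.19 to 0.14), FASN (−0.55 to 0.14), ELOVL5 (−0.43 to 0.083), ELOVL6 (−0.30 to 0.54), FADS1 (−2.31 to 0.38), FADS2 (−1.64 to 0.26), ACSL3 (−0.27 to 0.042), LPIN1 (−1.36 to 0.016), NPC1 (−0.67 to 0.39), SOAT1 (−0.10 to 0.20), NR1H3 (−0.60 to 0.13) and ABCA1 (−1.86 to 0.054). The cause of these changes was not tested.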
